A study of Homo sapiens with 4 samples.

Results

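The 53 genes described here encode the actin cytoskeleton and the focal adhesions that join it to the cell surface. They are the actins and their crosslinkers, tropomyosins, transgelins and calponins, non-muscle myosin II, proteins of filament turnover, the Arp2/3 complex, small GTPases with kinases and formins, focal adhesion proteins, and the transcription factor SRF with its cofactors MKL1 and MKL2 (now named MRTFA and MRTFB). They were found by symbol in the deposited table and not by any measured value, and all 53 were among its 14431 genes. The set was chosen with earlier results of these data known. RNA had been sequenced from HGC27, a line of human gastric cancer cells, in 2 control libraries and 2 libraries labelled siAARS1, from cells whose genotype the labels give as WT and as AARS1 knockdown, respectively. All 4 libraries came from cells kept without glucose in DMEM, a culture medium, with 10% FBS and with 25 mM lactate added for 24 h, so lactate was common to both groups. The text of the study gives another duration, and the time is uncertain. AARS1 encodes the alanyl-tRNA synthetase of the cytosol, and the comparison asked how its knockdown changed transcript levels in cells under lactate. The labels do not say whether the 2 libraries of a group came from separate cultures, so the p-values measure the spread between these libraries, which may be technical.

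Actin monomers assemble into filaments that myosin II pulls on, that tropomyosins and calponins coat, and that crosslinkers and focal adhesions hold in place. Free actin monomers hold the MRTF cofactors in the cytoplasm, so that filament assembly releases them to act with SRF on CArG boxes in the promoters of many cytoskeletal genes, and tension in the filaments is also known to raise the activity of YAP, the coactivator of the Hippo pathway.

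Between 30653210 and 33522573 reads per library fell in listed genes, and 1 read equalled 0.0293 to 0.0324 CPM, the reads of a gene scaled to the size of its library. No member had fewer than 274 reads in a library. The targeted gene, AARS1 (ENSG00000090861), stood at 428 and 417 CPM in control against 292 and 298 CPM in siAARS1, or 69.7% of control. Its log2 fold change was -0.52 (SE 0.0357, adjusted p = 2.52e-11 in limma), and -0.33 and -0.39 after the 2 corrections given further on, both called lower. The direction goes with the labels, though 38.0% of all genes tested were also called lower on deposited CPM. Of 5 epithelial markers, 2 were listed, and their summed level was 27.3 and 27.0 CPM in control against 7.29 and 6.14 CPM in siAARS1, most of it KRT8, while KRT18, KRT19 and EPCAM had no row. Of 3 mesenchymal markers, VIM and ZEB1 were listed, with a summed level of 5075 to 5137 CPM in control and 4652 to 4760 CPM in siAARS1. All 4 fibroblast markers were listed (COL1A1, COL1A2, PDGFRB and DCN), and they summed to 2702 and 2796 CPM in control and to 1970 and 1881 CPM in siAARS1. Most of that sum was COL1A1, at 2320 and 2399 CPM in control against 1644 and 1541 CPM in siAARS1, while DCN stood at 239 and 250.3 against 258 and 270.1 CPM, called higher on deposited CPM and lower after both of the corrections given further on. The smooth muscle marker DES was at 4.19 and 4.13 against 1.33 and 1.17 CPM, MYH11 had no row, and of the leukocyte markers only CD68 was listed, at 0.486 to 1.10 CPM. The epithelial, fibroblast and smooth muscle sums were lower in siAARS1, as were the mesenchymal sums, in which ZEB1 itself rose from 6.16 and 6.84 CPM to 50.03 and 52.31 CPM, and the part of these markers in the results was not tested. In RNA from a whole culture, fewer cells of one type and less RNA in each cell cannot be told apart.

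Most of the 53 genes were modestly lower in siAARS1, and a smaller number of them, led by ROCK1, ROCK2 and DIAPH3, were higher by more. All 53 passed the filter, which asked for 1 CPM or more as the mean of either group. Of them, 38 (71.7%) fell, 11 (20.8%) rose and 4 did not pass the threshold (limma on log2(CPM + 1), adjusted p under 0.05 over the 14199 genes tested). Among all genes tested, 38.0% were called lower and 32.6% were called higher, 70.7% in all, and among the 9319 genes with a mean CPM at least that of the lowest member these shares were 41.8% and 35.2%. The median log2 fold change was -0.27 over the members and -0.054 over all genes tested. The members together took 18244 and 18498 CPM in control against 15727 and 15336 CPM in siAARS1, or 84.5% of control, and the libraries of the 2 groups did not overlap in this sum. Scaling each library by its median moved the median of all genes to -0.27, and calls then divided into 10 higher and 42 lower among the members, while the share of higher calls among all called genes went from 46.2% to 29.4%.

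The size of the changes was uneven. Among the members, 5 were called and at least 2-fold higher, ROCK1, ROCK2, DIAPH3, MKL2 and MYH10, and none was called and at least 2-fold lower. These 5 are 9.43% of the members, where 10.6% of all genes tested were called and at least 2-fold higher and 1.63% called and at least 2-fold lower, so neither count stood far from its background. The CPM of the control and siAARS1 libraries did not overlap in 51 of the 53 members, against 85.1% of all genes tested, and overlapped in RAC1 and DIAPH1. The members were abundant, with a median of the mean CPM of 145 against 24.7 over all genes tested.

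**Figure D1:**
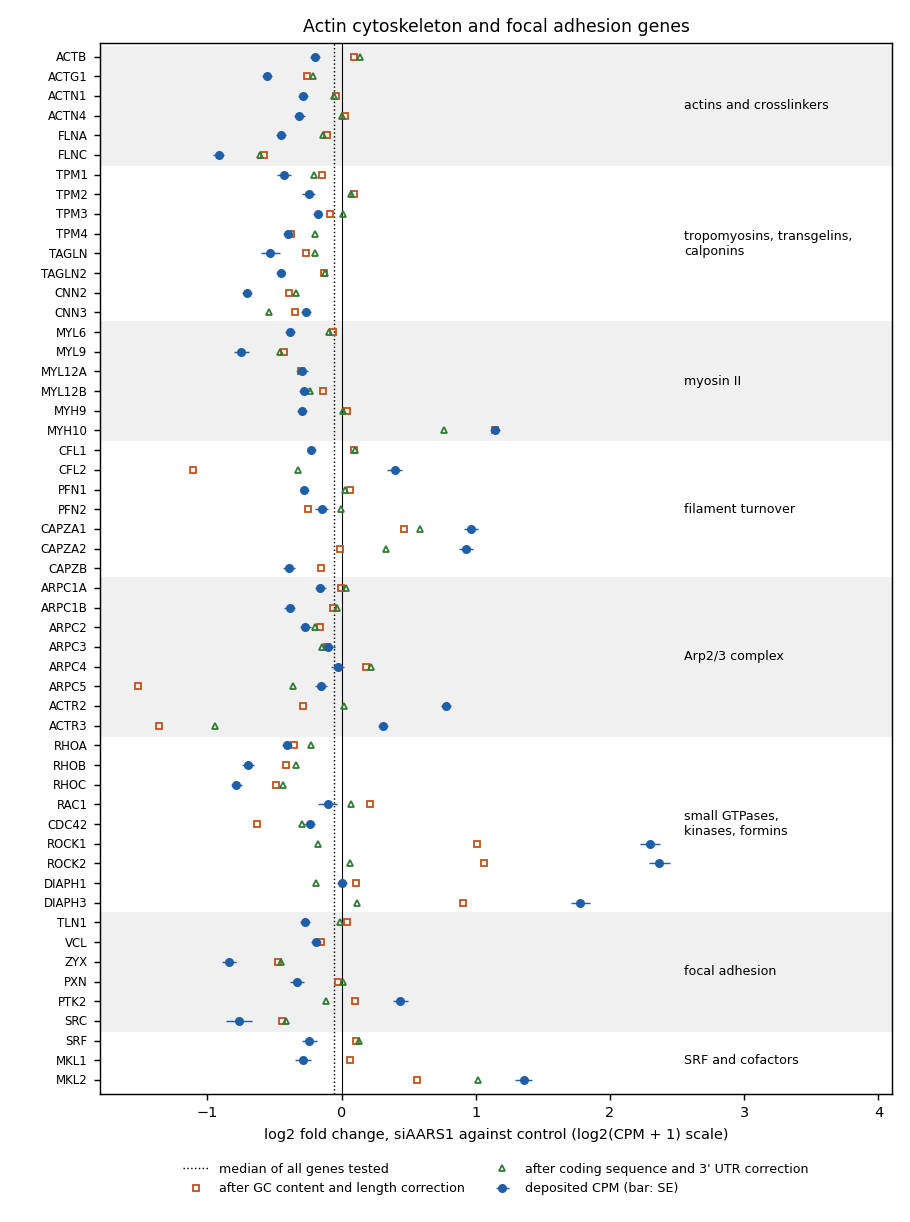
Log2 fold change of each of the 53 members, siAARS1 against control, on the log2(CPM + 1) scale. Filled circles with bars are the deposited CPM with their SE, open squares the values after the correction for GC content and length, and open triangles those after the correction for coding sequence and 3' UTR. The dotted line is the median of all genes tested. On deposited CPM 38 members fell and 11 rose, with ROCK1, ROCK2 and DIAPH3 farthest to the right, and after the second correction these 3 lay at -0.17, 0.063 and 0.12.

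The changes of the members went with the base composition of their transcripts and, less closely, with transcript length. The 11 members that rose had transcripts of 35.7% to 49.1% GC (median 40.6%), and the 38 that fell had 39.4% to 64.9% (median 57.2%), with 12 of the 38 under 50%. Across the 53 members, Spearman's rank correlation between log2 fold change and GC content was -0.72, and across 13819 genes with a known transcript it was -0.65. The 11 that rose had transcripts of 3020 to 9484 bases (median 6718), and the 38 that fell 858 to 9042 (median 2189). With length, the rank correlation was 0.29 across the members and 0.30 across all these genes. These values describe genes of the same 4 libraries, which share depth and preparation and are not independent replicates. CPM is not corrected for GC content, so the values of most members and the counts of each group are also given after 2 corrections, in the order in which they are named here, that removed from each library its smooth trend over transcript GC content and length, or over the GC content and length of the coding sequence and 3' UTR. Both corrections also remove any true change that follows these properties.

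**Figure D2:**
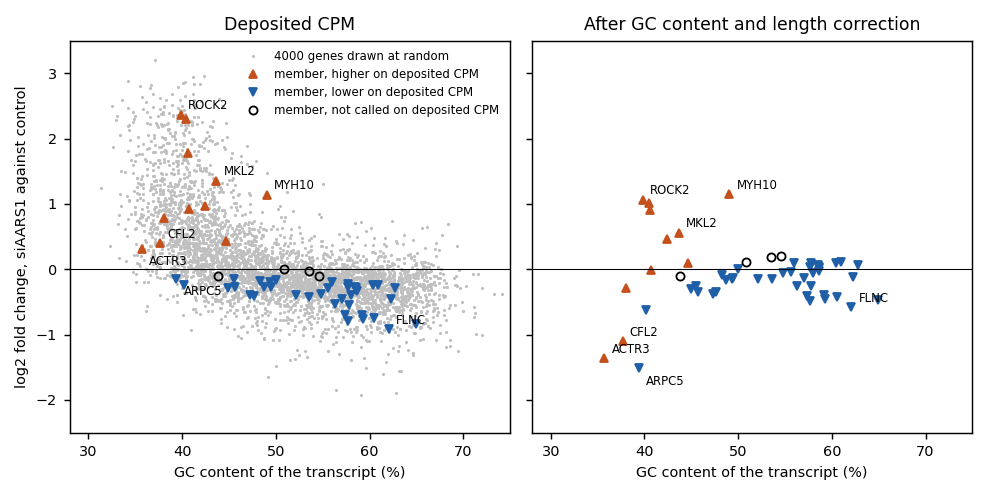
Log2 fold change against the GC content of each gene's transcript in percent, on deposited CPM (left) and after the correction for GC content and length (right). Triangles pointing up are the 11 members called higher on deposited CPM, triangles pointing down the 38 called lower, and circles the 4 not called. Grey points, in the left panel only, are genes drawn at random from those tested. All 11 members called higher lie below 50% GC. The correction was fitted to take out the trend over GC content, so the rank correlation of -0.0077 over the members after it follows from the fit.

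After the correction for GC content and length, 29 of the 53 members were lower and 13 higher, with a median of -0.11, where 34.3% of all 13819 genes fitted were lower and 31.9% higher. After the correction for coding sequence and 3' UTR, 28 of the 51 members fitted were lower and 8 higher, with a median of -0.12, where 33.1% of 12191 genes were lower and 32.8% higher. CAPZB and MKL1 had no 3' UTR in the transcript used and were left out of that fit. The call was lower on deposited CPM and after both corrections for 22 of these 51 members. It was higher in all 3 for 3 of the 51, MYH10, CAPZA1 and MKL2. Of 12191 genes, 2343 (19.2%) were lower in all 3 and 1673 (13.7%) higher. Of the 38 members that fell, 4 were called higher after the first correction and 3 after the second. Of the 11 that rose, 3 were called lower after the first and 4 after the second.

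All 6 actins and crosslinkers fell, and together they dropped from 7499 and 7654 to 6172 and 5837 CPM, or 79.3% of control. After each of the 2 corrections 3 of the 6 were lower, 1 was higher and 2 were not called. For this and the other role groups, the shares over all genes were 38.0% lower and 32.6% higher on deposited CPM. They were 34.3% and 31.9% after the first correction, and 33.1% and 32.8% after the second. Among all members, 71.7% were lower on deposited CPM. ACTB (beta-actin, ENSG00000075624, chromosome 7, 5527147 to 5563784, GRCh38) had the highest level of all members, 3494 and 3618 CPM in control against 3188 and 3006 CPM in siAARS1. Its log2 fold change was -0.20 (SE 0.0381, adjusted p = 8.82e-05 in limma), and it turned to 0.095 and 0.14 after the 2 corrections, where it was called higher. ACTG1 (gamma-actin, ENSG00000184009, chromosome 17, 81509971 to 81523847) went from 1206 and 1228 CPM to 853 and 805 CPM. Both siAARS1 libraries were below both controls, and the log2 fold change of -0.55 (SE 0.0360, adjusted p = 9.35e-12 in limma) was -0.26 and -0.21 after the corrections, still called lower.

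The coding sequences of ACTB and ACTG1 matched at 91.2% of their bases, so a read from one can resemble the other, and the way the authors divided such reads was not stated. The first 60 coding bases of both (GENCODE v29) are printed because the 2 genes moved by different amounts, and capitals mark the 10 bases that differ.
ACTB: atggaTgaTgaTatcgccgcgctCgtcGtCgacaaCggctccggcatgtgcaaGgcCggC
ACTG1: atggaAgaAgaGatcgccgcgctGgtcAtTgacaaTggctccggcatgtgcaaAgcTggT

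The filamins link actin filaments into networks. FLNC (filamin C, ENSG00000128591, chromosome 7, 128830377 to 128859274) changed most in this group, from 132 and 133 CPM to 70.2 and 68.9 CPM, or 52.6% of control. This was a log2 fold change of -0.92 (SE 0.0436, adjusted p = 3.98e-14 in limma), and it was -0.58 and -0.61 after the corrections. FLNA (filamin A, ENSG00000196924, chromosome X, 154348524 to 154374638) fell from 1955 and 1964 CPM to 1464 and 1401 CPM, a log2 fold change of -0.45 that came to -0.11 and -0.14 after the corrections, called lower in all 3. The alpha-actinins ACTN1 and ACTN4 had log2 fold changes of -0.29 and -0.32, both called lower, and neither was called after either correction.

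All 8 tropomyosins, transgelins and calponins fell, from 2598 and 2611 CPM in all to 2017 and 1980 CPM, or 76.7% of control. Of these 8, 7 were lower after the correction for GC content and length and 6 after the correction for coding sequence and 3' UTR. Over all genes, 38.0% were lower on deposited CPM, 34.3% after the first correction and 33.1% after the second. TPM4 (ENSG00000167460, chromosome 19, 16067021 to 16103005), the tropomyosin with the highest level, stood at 938 and 955 CPM in control against 723 and 709.9 CPM in siAARS1. The fold change on the log2 scale was -0.40 (SE 0.0339, adjusted p = 8.23e-10 in limma), and -0.38 and -0.20 after the corrections. TPM3, next in level, went from 521 and 528 CPM to 469 and 458 CPM. Its log2 fold change of -0.18 was called lower, as was the corrected value of -0.089, and the value of 0.011 after the second correction was not called.

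The calponins and transgelins bind along the filament and are best known from smooth muscle. CNN2 (calponin 2, ENSG00000064666, chromosome 19, 1026581 to 1039068) had the largest fall of these 8 genes, from 307 and 309.7 CPM to 192 and 185 CPM. Its log2 fold change was -0.71 (SE 0.0374, adjusted p = 2.62e-13 in limma), and -0.39 and -0.34 after the corrections. TAGLN (transgelin, ENSG00000149591), a classical smooth muscle and SRF target gene, was low here, with 29.3 and 28.3 CPM in control and 19.6 CPM in each siAARS1 library. Its log2 fold change of -0.53 (SE 0.0700, adjusted p = 7.59e-07 in limma) became -0.26 and -0.20 after the corrections. CNN3 was the member of this group whose corrected values were the lower ones, with -0.27 on deposited CPM and -0.34 and -0.54 after the corrections. TPM2, at -0.25, was called lower on deposited CPM and higher after the first correction, at 0.091. TPM1 and TAGLN2, at -0.43 and -0.46, were lower in all 3 fits.

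Within myosin II, the motor that contracts the filaments, 5 of 6 genes fell and the heavy chain MYH10 rose, and after each correction 4 were lower, 1 was higher and 1 was not called. Over all genes, 38.0% were lower on deposited CPM, and 34.3% and 33.1% after the corrections. MYH10 (myosin IIB, ENSG00000133026, chromosome 17, 8474205 to 8630761) had 135 and 136 CPM in control against 306 and 294 CPM in siAARS1, 2.22-fold the control level. On the log2 scale the change was 1.14 (SE 0.0384, adjusted p = 8.92e-17 in limma), and 1.15 and 0.76 after the corrections. MYH9 (myosin IIA, ENSG00000100345, chromosome 22, 36281277 to 36388067), the more abundant heavy chain, went from 725 and 719 CPM to 609 and 569 CPM. Its log2 fold change of -0.29 (SE 0.0369, adjusted p = 3.94e-07 in limma) was called lower, and the corrected values of 0.041 and 0.0069 were not called.

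The 4 light chains measured all fell and were lower in all 3 fits, as were 19.2% of 12191 genes. MYL9 (regulatory light chain, ENSG00000101335, chromosome 20, 36541484 to 36551447) fell most, from 62.3 and 65.7 CPM to 38.5 and 36.9 CPM, with a log2 fold change of -0.75 (SE 0.0550, adjusted p = 7.71e-11 in limma) and corrected values of -0.43 and -0.46. MYL6 (essential light chain) had the highest level, 750.5 and 692 CPM in control against 555 and 550.3 CPM in siAARS1, and a log2 fold change of -0.38 that came to -0.064 and -0.093 after the corrections. MYL6 overlaps MYL6B on the same strand. MYL12A and MYL12B, with coding sequences matching at 95.2% of bases and values of -0.29 and -0.28, cannot be held apart with certainty by reads in their coding sequence.

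Filament turnover divided by gene, with 4 of 7 lower and 3 higher. After the correction for GC content and length 3 were lower, 3 higher and 1 not called, and after the second correction 1 of the 6 fitted was lower, 3 were higher and 2 not called. CFL1 (cofilin 1, which severs filaments) had 940.3 and 971 CPM in control against 831 and 804 CPM in siAARS1, a log2 fold change of -0.23 that turned to 0.091 and 0.097 after the corrections. PFN1 (profilin 1, which binds actin monomers) held 769.8 and 769.6 CPM in control against 650.4 and 619 CPM in siAARS1, a log2 fold change of -0.28 with corrected values of 0.065 and 0.023. The less abundant CFL2 rose on deposited CPM, at 0.40, and was called lower after the corrections, at -1.11 and -0.33. The CFL2 transcript used for the corrections was 6747 bases long, 6096 of them 3' UTR. PFN2, at -0.15 and called lower, was at -0.25 after the first correction, also called lower, and at -0.0025 after the second, not called. On deposited CPM it lost its call without control replicate 2 (-0.11) and without siAARS1 replicate 1 (-0.093).

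Capping protein closes the growing filament end as a pair of an alpha and a beta subunit. CAPZA1 (alpha subunit, ENSG00000116489, chromosome 1, 112619173 to 112671619) rose from 70.7 and 76.3 CPM to 137 and 152 CPM, with a log2 fold change of 0.97 (SE 0.0512, adjusted p = 2.68e-13 in limma) and corrected values of 0.46 and 0.58, called higher throughout. CAPZA2, the other alpha subunit gene, rose from 38.1 and 39.7 CPM to 71.9 and 78.0 CPM. The log2 fold change of 0.93 came to -0.013 after the correction for GC content and length, which was not called, and to 0.33 after the second correction. CAPZB, the beta subunit gene, fell from 119 and 115 CPM to 89.9 and 88.0 CPM, a log2 fold change of -0.39 with a corrected value of -0.16, also called lower.

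The Arp2/3 complex, which starts new filaments as branches, divided between its genes and kept its level in sum. Its 8 genes summed to 1496 and 1487 CPM in control against 1512 and 1530 CPM in siAARS1, or 102% of control, with 4 genes lower, 2 higher and 2 not called. After the first correction 5 were lower, 1 higher and 2 not called, and after the second 4 were lower, 1 higher and 3 not called. ACTR2 (ENSG00000138071, chromosome 2, 65227753 to 65271253) rose from 220.2 and 229.8 CPM to 376 and 398 CPM. The log2 fold change of 0.78 (SE 0.0389, adjusted p = 9.54e-14 in limma) came to -0.29 after the first correction, called lower, and to 0.015 after the second. ACTR3 likewise rose on deposited CPM, at 0.31, and was called lower after the corrections, at -1.36 and -0.94. The ACTR3 transcript used for the corrections was 6718 bases long, 5141 of them 3' UTR. ARPC1B (ENSG00000130429, chromosome 7, 99374249 to 99394816) had the highest level of the complex, 422 and 407 CPM in control against 324 and 309 CPM in siAARS1, and a log2 fold change of -0.39 with corrected values of -0.062 and -0.037 that were not called.

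The other subunits moved less on deposited CPM. ARPC1A, at -0.16, was called lower there and not called after either correction. ARPC2 fell by 0.27 on the log2 scale and was lower in all 3 fits. ARPC3, at -0.098, and ARPC4, at -0.030, did not pass the threshold (adjusted p = 0.0585 and 0.591 in limma). Both passed it after the corrections, ARPC3 as lower, at -0.11 and -0.14, and ARPC4 as higher, at 0.18 and 0.22. ARPC4 overlaps both ARPC4-TTLL3 on its own strand and TADA3 on the other. ARPC5 was at -0.15 on deposited CPM and at -1.52 and -0.36 after the corrections. Its transcript used for the correction was 7209 bases long, most of it 3' UTR, and without siAARS1 replicate 1 its deposited value of -0.082 was not called.

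Among the small GTPases of the list, RHOA, RHOB, RHOC and CDC42 fell. RHOA (ENSG00000067560, chromosome 3, 49359145 to 49412998) had 425 and 434 CPM in control against 321 and 325 CPM in siAARS1. This was a log2 fold change of -0.41 (SE 0.0351, adjusted p = 1.07e-09 in limma), and -0.35 and -0.23 after the corrections. RHOC fell from 169.9 and 173 CPM to 101 and 97.5 CPM, a log2 fold change of -0.78 (SE 0.0413, adjusted p = 2.34e-13 in limma). RHOB, at -0.70, and CDC42, at -0.24, were also lower, and all 4 GTPases kept that call after both corrections. RAC1 varied more between replicates, with 300.1 and 372 CPM in control against 287 and 336 CPM in siAARS1. Its groups overlapped, its log2 fold change of -0.10 was not called (adjusted p = 0.184 in limma), and with 1 library left out it ran from -0.26 without control replicate 1, called lower, to 0.051 without control replicate 2, not called. After the correction for GC content and length RAC1 was at 0.21 and called higher (adjusted p = 0.0295 in limma), and after the second correction it was at 0.071 and not called. Of the 9 small GTPases, kinases and formins, 4 were lower and 5 higher after the first correction, and 6 lower, none higher and 3 not called after the second.

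Of the 4 kinases and formins of the same group, 3 went the other way on deposited CPM, from low control levels. ROCK1 (ENSG00000067900), a kinase that activates myosin II, had 9.65 and 10.7 CPM in control against 53.5 and 54.4 CPM in siAARS1, from 329 and 341 against 1653 and 1809 reads. ROCK2 (ENSG00000134318, chromosome 2, 11179761 to 11348330), its close relative, had 8.47 and 9.90 CPM in control against 50.6 and 52.1 CPM in siAARS1. These levels were 5.29-fold and 5.59-fold those of control, with every siAARS1 library far above both controls. The log2 fold changes were 2.30 (SE 0.0731, adjusted p = 3.66e-17 in limma) for ROCK1 and 2.37 (SE 0.0786, adjusted p = 7.52e-17 in limma) for ROCK2. After the correction for GC content and length they were 1.01 and 1.06, called higher, and after the correction for coding sequence and 3' UTR they were -0.17, called lower, and 0.063, not called.

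The formins build unbranched filaments. DIAPH3 (ENSG00000139734, chromosome 13, 59665583 to 60163987) rose from 12.2 and 11.6 CPM to 43.3 CPM in each siAARS1 library, a log2 fold change of 1.78 (SE 0.0716, adjusted p = 2.13e-15 in limma) with corrected values of 0.91, called higher, and 0.12, not called. DIAPH1, the abundant formin, had 258 and 262 CPM in control against 262 and 258 CPM in siAARS1, and its log2 fold change of 0.00083 was not called (adjusted p = 0.985 in limma). It was -0.23 under median scaling and -0.19 after the correction for coding sequence and 3' UTR, called lower in both, and 0.11 after the correction for GC content and length, called higher.

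**Figure D3:**
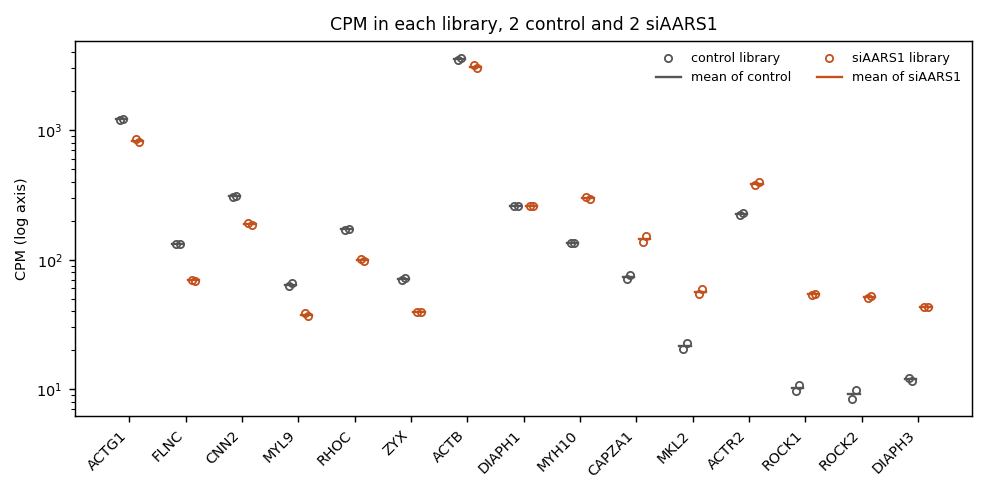
CPM of 15 members in each of the 4 libraries on a log axis, with short lines at the mean of each group of 2 libraries. FLNC, CNN2, MYL9, RHOC and ZYX lie lower in both siAARS1 libraries, MYH10, CAPZA1, MKL2 and ACTR2 higher, DIAPH1 at one level, and ROCK1, ROCK2 and DIAPH3 rise from 8.47 to 12.2 CPM in control to 43.3 to 54.4 CPM in siAARS1. Of the members that rise here, ACTR2 and ROCK1 were called lower after 1 of the 2 corrections, and ACTB, which falls, was called higher after both.

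In the focal adhesion group, 5 of 6 genes fell and PTK2 rose, and the group summed to 979 and 989.7 CPM in control against 845 and 825 CPM in siAARS1. After the first correction 3 were lower and 3 not called, and after the second 4 were lower and 2 not called. Over all genes, 38.0% were lower on deposited CPM, and 34.3% and 33.1% after the corrections. TLN1 (talin 1, which links integrins to actin) stood at 404 and 406 CPM in control against 347 and 325 CPM in siAARS1, a log2 fold change of -0.27 whose corrected values of 0.040 and -0.015 were not called. VCL (vinculin, recruited to talin under tension) went from 377 and 387 CPM to 332 and 337 CPM, a log2 fold change of -0.19 with corrected values of -0.16 and -0.19, lower in all 3 fits. VCL overlaps AP3M1 on the other strand, which rose by 0.89, and the use of strand in counting was not stated. In all, 15 of the 53 members overlap another listed gene, 3 of them on the same strand and 14 on the other.

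ZYX (zyxin, which gathers at adhesions and stress fibres under tension, ENSG00000159840, chromosome 7, 143381080 to 143391111) fell most of the 6, from 69.7 and 72.7 CPM to 39.2 and 39.6 CPM. The log2 fold change was -0.84 (SE 0.0523, adjusted p = 4.83e-12 in limma), and -0.47 and -0.45 after the corrections. SRC (a tyrosine kinase of adhesions, ENSG00000197122, chromosome 20, 37344685 to 37406050) fell from 14.7 and 16.5 CPM to 9.33 and 8.24 CPM, a log2 fold change of -0.76 (SE 0.0984, adjusted p = 5.70e-07 in limma) with corrected values of -0.45 and -0.42. PTK2 (focal adhesion kinase), at 0.44, was not called after the first correction (0.097) and was called lower after the second (-0.12). PXN (paxillin) fell by 0.33 on the log2 scale and was not called after either correction.

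SRF and its cofactors divided, with MKL2 higher and SRF and MKL1 lower. MKL2 (ENSG00000186260, chromosome 16, 14071321 to 14266773) rose from 20.5 and 22.6 CPM to 54.2 and 59.3 CPM, 2.63-fold the control level. The log2 fold change of this gene was 1.36 (SE 0.0663, adjusted p = 6.55e-14 in limma), and 0.56 and 1.01 after the corrections. MKL1 had 37.7 CPM in each control library and 30.7 CPM in each siAARS1 library, a log2 fold change of -0.29 (SE 0.0604, adjusted p = 0.000253 in limma) that was not called after the correction for GC content and length (0.061). SRF (ENSG00000112658, chromosome 6, 43171299 to 43181507) went from 64.8 and 67.5 CPM to 59.0 and 52.9 CPM, a log2 fold change of -0.24 that turned to 0.10, not called, and 0.13, called higher, after the corrections.

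Promoters of 45 of the 53 members were in the RefSeq table used here, which holds 250 bases before and 50 after each start (GRCh38.p14). The CArG box, the element that SRF binds, was searched on both strands by its consensus. It was found for 7 of these 45 genes, or 15.6%, and for 1.60% of 27305 genes in the table. A gene counted if any of its promoters matched. The 45 members had 75 promoters and the 27305 genes had 35116, so more sequence per gene was searched among the members. The 7 genes are ACTG1, ACTN1, FLNA, TPM4, CNN2, ROCK2 and SRF itself, which holds it at 2 places. Only the box follows a common pattern, and the bases beside it differ between the genes. The 60 bases around each box are shown with the box in capitals, read 5′ to 3′ on the strand of the gene.
ACTG1, chr17:81512859-81512918, minus strand: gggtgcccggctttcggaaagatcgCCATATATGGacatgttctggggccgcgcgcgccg
ACTN1, chr14:68977703-68977762, minus strand: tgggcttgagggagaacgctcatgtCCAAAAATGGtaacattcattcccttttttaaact
FLNA, chrX:154374694-154374753, minus strand: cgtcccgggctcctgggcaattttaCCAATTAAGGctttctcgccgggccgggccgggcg
TPM4, chr19:16067340-16067399, plus strand: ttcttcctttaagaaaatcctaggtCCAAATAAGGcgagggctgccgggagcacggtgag
CNN2, chr19:1026494-1026553, plus strand: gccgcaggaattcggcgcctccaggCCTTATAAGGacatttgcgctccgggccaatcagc
ROCK2, chr2:11345476-11345535, minus strand: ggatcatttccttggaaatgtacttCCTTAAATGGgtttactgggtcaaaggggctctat
SRF, chr6:43171209-43171268, plus strand: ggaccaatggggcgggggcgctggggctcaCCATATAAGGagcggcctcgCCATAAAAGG

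The boxes began 94 bases before a RefSeq start in ACTG1 and FLNA, 171 in ACTN1, 173 in TPM4, 89 in CNN2, 73 in ROCK2, and 30 and 10 in SRF. Of these 7 genes, 6 fell on deposited CPM and ROCK2 rose, where 38 of all 53 members (71.7%) and 38.0% of all genes tested fell. After both corrections ACTG1, FLNA, TPM4 and CNN2 were still lower. Lower in all 3 fits were 22 of the 51 members fitted and 19.2% of 12191 genes, and a part of the box in the changes was not tested. ACTN1 was not called after either correction, at -0.043 and -0.057. SRF was not called after the first and was higher after the second, and ROCK2 was higher after the first and not called after the second. The core of the site bound by TEAD, the partner of YAP, was searched as GGAATG or its complement CATTCC, and was found for 12 of the 45 genes, or 26.7%, and for 16.7% of all genes in the table. Here too the members had more promoters per gene. A match of letters is a description and not a site shown to be bound.

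A second list held 22 other genes known as targets of SRF, with the MRTF or other cofactors, none of them a member. The list was chosen with earlier results of these data known, so its counts describe it and do not test it. It includes immediate early genes such as FOS, FOSB, EGR1 and JUNB, and which cofactor acts on each gene was not tested. Of the 22, 18 were listed and 17 tested, and 14 (82.4%) were lower and 1 (5.88%) higher, with a median log2 fold change of -0.69. Among all genes tested, 38.0% were called lower and 32.6% higher. After the corrections 15 and 13 genes of the list were lower and 1 and 2 higher, with medians of -0.43 and -0.34. In all 3 fits 12 of the 17 were called lower, with JUNB, EGR1, FOS, FOSB and IER2 among them. Of all genes fitted, 34.3% and 33.1% were lower and 31.9% and 32.8% higher after the corrections, and 19.2% were lower in all 3 fits. FOS (an immediate early transcription factor) went from 7.63 and 7.28 CPM to 1.98 and 1.62 CPM, a log2 fold change of -1.60 (SE 0.132, adjusted p = 5.67e-10 in limma) with corrected values of -1.43 and -1.38. FHL1 (a LIM domain protein of muscle) was at 11.5 and 12.6 CPM in control against 5.18 and 4.66 CPM in siAARS1, a log2 fold change of -1.14 with corrected values of -1.34 and -0.96. CALD1 (caldesmon, which binds actin and myosin) was the gene that rose, from 33.9 and 37.4 CPM to 84.4 and 90.2 CPM, a log2 fold change of 1.27 with corrected values of 0.47 and 0.92.

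A wider list of 83 other regulators of actin was also read, of which 80 were listed and tested. It too was chosen with earlier results of these data known. It divided nearly evenly, with 35 lower, 32 higher and 13 not called and a median log2 fold change of -0.052, against -0.054 over all genes tested. These calls are 43.8% lower and 40.0% higher, where 38.0% and 32.6% of all genes tested were so called. After the first correction 31 of 79 were lower and 28 higher, and after the second 31 of 78 were lower and 26 higher. In all 3 fits 19 of these 78 were lower and 12 of 78 higher, against 2343 (19.2%) and 1673 (13.7%) of 12191 genes. The largest changes were rises. ANLN (anillin, of the contractile ring) went from 34.0 and 35.7 CPM to 209 and 212 CPM, a log2 fold change of 2.56 with corrected values of 1.58 and 0.91. ECT2, which acts in cell division, had a log2 fold change of 2.37 with corrected values of 1.26 and 0.51, and ARHGAP5 had 2.89 with corrected values of 1.18 and -0.12, the last not called.

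A ratio within 1 library compares related members without the scaling between libraries. Ratios were formed for 20 pairs of related members, on log2(CPM + 1), and 8 of them, chosen after their values were seen, are plotted. With 2 libraries against 2, a two-sided exact permutation test cannot give a p below 0.333 (adjusted over the 20 pairs, 0.417), so these differences are given by their size and spread. The ratio of MYH10 to MYH9 was -2.42 and -2.40 in control and -0.99 and -0.95 in siAARS1, a difference of 1.44 that was 1.11 and 0.75 after the corrections. Per kilobase of transcript, the level of MYH10 was 0.185 of that of MYH9 in control and 0.502 in siAARS1. The ratio of ACTG1 to ACTB was lower in siAARS1 by 0.35 on deposited CPM and after each correction, and that of FLNC to FLNA by 0.47 in each case. Transcript GC content was 57.8% in ACTG1 and 56.0% in ACTB, 62.1% in FLNC and 62.2% in FLNA, and lengths were also similar. The first correction therefore takes nearly the same trend from the 2 genes of such a pair and could hardly change these ratios. For the second, ACTG1 and ACTB were also alike, with 1128 coding bases each and 3' UTRs of 701 and 601 bases at 43.4% and 42.3% GC. The 3' UTRs of FLNC and FLNA differed, with 751 and 323 bases at 58.9% and 65.6% GC.

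Other pairs changed in size or in direction with the corrections. The ratio of MKL2 to MKL1 was higher in siAARS1 by 1.64 and, after the correction for GC content and length, by 0.50. That of DIAPH3 to DIAPH1 was higher by 1.78, and by 0.80 and 0.31 after the corrections, and that of CAPZA1 to CAPZB by 1.36 and, after the first correction, by 0.62. The ratio of CFL2 to CFL1 was higher by 0.62 on deposited CPM and turned to -1.20 and -0.42.

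**Figure D4:**
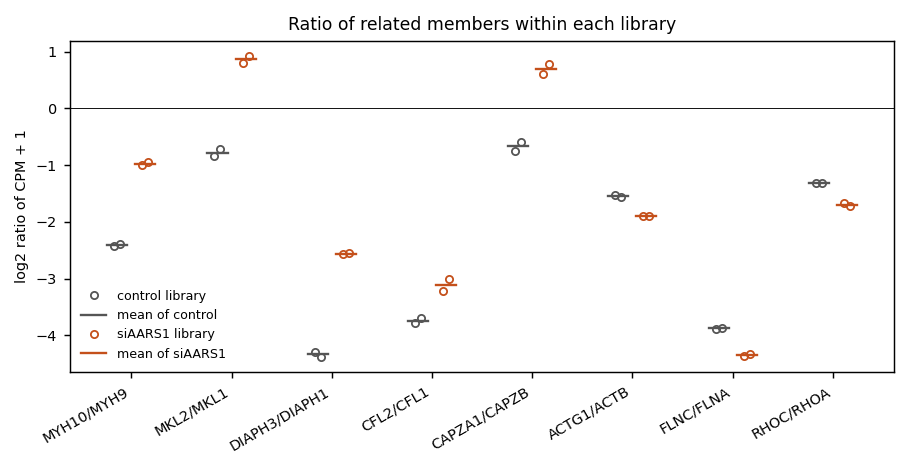
Log2 ratio of CPM + 1 between related members within each library, for 8 pairs, with lines at the mean of each group of 2 libraries. MYH10/MYH9 rises from -2.41 to -0.97 and ACTG1/ACTB falls from -1.55 to -1.90 on deposited CPM, both in the same direction after the corrections, whereas CFL2/CFL1 turns from a difference of 0.62 to -1.20 and -0.42. ACTG1 and ACTB are alike in GC content and length, so the corrections could hardly change their ratio.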

How the data were processed

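The authors deposited CPM for 14431 genes in 4 libraries. The submitters' processing notes name RSEM 1.3.3 and hg38, with no role stated, and annotation and use of strand are not given in the sources used here. In each library all values (100% within 0.0011 CPM) were whole multiples of 1 read, so reads were recovered, though they may be rounded estimates. Replicates were compared and were not duplicates (chi-square per gene 3.63 and 3.61). Reads are not independent molecules, so depth covers counting error alone.

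Groups and replicate numbers came from sample titles. Limma 3.58.1 in R 4.3.3 (eBayes with its trend option) was fitted to log2(CPM + 1) of the 14199 genes whose mean reached 1 CPM in a group, with Benjamini-Hochberg adjustment over all genes and a threshold of 0.05. The pseudocount understates changes of low genes. Log2 fold changes compare siAARS1 with control, and SD and SE rest on n = 2 libraries per group. Trends over GC content and length were fitted with mgcv 1.9.3 on genes of at least 5 CPM, using 1 GENCODE v29 transcript per gene, for 97.3% of tested genes, or 85.9% for coding sequence and 3' UTR. GENCODE coordinates were matched by gene identifier. Alternatives were another pseudocount (0.1), no filter, other scalings, a replicate block, leaving out each library, edgeR 4.0.16 and DESeq2 1.42.0 on recovered reads, and a threshold of 0.01. The coding sequence and 3' UTR correction was added after seeing the data. Scripts were tested on simulated data.

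The members and gene lists were chosen with earlier results of these data known. Named are AARS1, from each of the 8 role groups the 2 members with the highest mean CPM and the 2 with the largest called change, and up to 3 genes with the largest called change from each other list among those with at least 5 CPM. Other members are given as members. RAC1 was named for its level.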

Additional observations from a re-analysis of the deposited data

How the results depend on the processing

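Of the 53 members, 53 kept their direction and side of the threshold with a pseudocount of 0.1, without a filter and at a threshold of 0.01, 52 with edgeR, 50 with median-of-ratios scaling, 49 with quantile normalization or DESeq2, 48 with median scaling, and 49 to 53 when 1 library was left out (49 without siAARS1 replicate 1). The corrections changed most, keeping 31 (GC content and length) and 26 of 51 (coding sequence and 3' UTR). The number of role groups with more members lower than higher, 8, was 5 once GC content and length were corrected for, with or without the replicate block. With the correction for coding sequence and 3' UTR, filament turnover had 1 lower and 3 higher, and SRF and its cofactors 0 lower and 2 higher. The other role groups then still had more members lower than higher. Among SRF and MRTF targets, the 1 higher gene became 2 with median-of-ratios scaling, the correction for coding sequence and 3' UTR, edgeR and DESeq2, and 1 to 2 when 1 library was left out (2 without siAARS1 replicate 1).

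Values that turned direction when GC content and length were corrected for, the same with the replicate block, were ACTB 0.095, ACTN4 0.024, TPM2 0.091, MYH9 0.041, CFL1 0.091, CFL2 -1.11, PFN1 0.065, CAPZA2 -0.013, ARPC4 0.18, ACTR2 -0.29, ACTR3 -1.36, RAC1 0.21, TLN1 0.040, SRF 0.10 and MKL1 0.061. Those that did so with the correction for coding sequence and 3' UTR were ACTB 0.14, ACTN4 0.0033, TPM2 0.072, TPM3 0.011, MYH9 0.0069, CFL1 0.097, CFL2 -0.33, PFN1 0.023, ARPC1A 0.034, ARPC4 0.22, ACTR3 -0.94, ROCK1 -0.17, DIAPH1 -0.19, PXN 0.0096, PTK2 -0.12, SRF 0.13 and ARHGAP5 -0.12. DIAPH1 turned to -0.23 with median scaling. Members that turned without a call on either side were RAC1 (0.071 with the correction for coding sequence and 3' UTR, 0.051 without control replicate 2, 0.0090 without siAARS1 replicate 1), DIAPH1 (-0.0085 without control replicate 1, -0.0096 without siAARS1 replicate 1, -0.0041 with quantile normalization) and ARPC4 (0.021 with median-of-ratios scaling, 0.0078 with edgeR, 0.022 with DESeq2). The cause was not tested beyond what each correction removes.

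The labels do not say that replicate numbers mark shared cultures, and with 2 pairs the correlation of deviations was 0.118, so the replicate block rests on a number only. It gave 10389 called genes against 10032, and 11 higher and 40 lower members.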

Other observations

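Some families of actin regulators outside the 53 genes also divided between their members, and these were picked after their values were seen. Of the ERM proteins, which tie filaments to the cell membrane, EZR (ezrin) went from 115 and 108 CPM to 81.5 and 78.9 CPM and MSN (moesin) from 310 and 308 CPM to 231 and 218 CPM. RDX (radixin) rose from 36.2 and 36.3 CPM to 161 and 168 CPM. The log2 fold changes were -0.47, -0.46 and 2.15, and after the corrections for GC content and length and for coding sequence and 3' UTR they were -0.32 and -0.28 for EZR, -0.36 and -0.31 for MSN, and 1.03 and 0.79 for RDX, with the calls of limma in the same direction in all 3 fits.

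Of the twinfilins, which bind actin monomers and capping protein, TWF2 fell from 77.0 and 74.8 CPM to 49.0 and 47.2 CPM and TWF1 rose from 45.1 and 44.8 CPM to 167 and 189.9 CPM. The log2 fold change of TWF2 was -0.65, with corrected values of -0.30 and -0.27, and that of TWF1 was 1.96, with corrected values of 0.96 and 0.97. IQGAP1, a scaffold of the cell cortex, rose from 39.9 and 42.3 CPM to 204 and 211 CPM (2.31, with corrected values of 1.59 and 1.09). GSN (gelsolin, a filament severing protein) fell from 45.7 and 45.4 CPM to 17.5 and 17.4 CPM (-1.34, with corrected values of -1.03 and -1.03). The differences between members of a family were not tested.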
